A study of Mus musculus with 11 samples.

Results

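The 8 genes described here write, copy and remove methyl groups on cytosines of DNA: the methyltransferases Dnmt1, Dnmt3a and Dnmt3b, the cofactor Dnmt3l, the hemimethyl-DNA reader Uhrf1 and the dioxygenases Tet1, Tet2 and Tet3. They were chosen by name, and all 8 had a row among the 20265 gene rows of the table. They were followed through 13 stages of male germ cells in 3 mice. Dnmt1 copies methylation onto the new strand after DNA replication, and Uhrf1 brings it to sites methylated on the old strand only. Dnmt3a and Dnmt3b set methylation at unmethylated sites, which Dnmt3l assists in fetal male germ cells. The TET enzymes oxidise 5-methylcytosine, after which base excision repair or replication can remove it. In the adult testis, spermatogonia divide by mitosis, preleptotene cells copy their DNA for the last time before meiosis, and leptotene, zygotene and pachytene cells pass through the first meiotic prophase without further replication.

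Single cells of the adult testis of 3 mice with a Dazl-GFP reporter, which marks germ cells, were sorted as live GFP-positive cells into plates and profiled by SORT-Seq. The method counts RNA molecules at their 3' ends by random tags, the unique molecular identifiers (UMIs). No mouse was treated, strain and exact age are not given in the labels, and the mouse is the replicate (n = 3). Mouse 1 was processed by CEL-Seq1 in 8 libraries and mice 2 and 3 by CEL-Seq2 in 1 and 2 libraries, so that mouse 1 and its protocol cannot be told apart. Of the 2 libraries of mouse 3, 1 was gate-sorted; index sorting was used for the rest.

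Of 768, 384 and 768 wells, 545, 321 and 582 held at least 1000 UMIs in mice 1, 2 and 3, with 3.55, 4.21 and 3.54 reads per UMI. A total of 1221 cells fell into stages that were built without the 8 genes: 470, 291 and 460 cells by mouse. By marker genes, stage 1 (57 cells) was undifferentiated spermatogonia-like, stages 2 (75) and 3 (157) were differentiating spermatogonia-like, stages 6 to 9 (51, 150, 104 and 61) leptotene and zygotene-like, and stages 10 to 13 (77, 83, 105 and 89) pachytene-like. Stages 4 (129 cells, led by Esx1 and Rec8) and 5 (83 cells, led by Stra8, Clu and Sparc) stayed unnamed. The leading genes of stage 4 gave it the preleptotene class, but preleptotene markers together were lower there, at 1109 ± 275 (SD, n = 3) UMIs per 1000000, than at stage 5, with 4384 ± 671, or stage 2, with 1213 ± 258. The name of stage 9, led by Gnas, Mnd1 and Hemt1, is weak. Detected markers of its class had a mean log2 fold of 0.18 over other cells. Pachytene markers, at 3264 ± 763, lay between stages 8 (1836 ± 520) and 10 (6235 ± 1460). Staged on all autosomes, a cluster also led by these genes stayed unnamed. The steps from stage 9 to 10 are thus not read as entry into pachytene. The germ cell genes Dazl and Ddx4 were seen in 39 of 39 sums of a mouse and stage. Sertoli cell markers, 6 of 7 of them seen, reached 391 ± 208 (SD, n = 3) UMIs per 1000000 at stage 5 and 1.06 to 152 in the sums of the other stages, and 11 of the 83 cells of stage 5 were Sertoli-like when staged on all autosomes. Blood markers were at 0 throughout. Levels below are in CPM, the UMIs of a gene per 1000000 autosomal UMIs in the summed cells of a mouse and stage, and are given by mouse or as mean ± SD over 3 mice. They compare stages of 1 gene and not genes with each other.

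Dnmt1 and Uhrf1, the pair that maintains methylation, were both highest at stages 2 to 4 and lower at stage 6, and then parted. Dnmt1 stood at 154, 207 and 218 CPM in mice 1, 2 and 3 at stage 1. At stage 2 it was at its highest, with 246, 313 and 334 (298 ± 46.1). The 2 stages did not overlap, and edgeR's quasi-likelihood test put the difference at 0.59 ± 0.16 (log2, SE; adjusted p = 0.0085), higher in 3 of 3 mice. Stage 4 still held 262, 260 and 272. From stage 5 to stage 6 Dnmt1 went from 183, 276 and 156 to 66.0, 47.0 and 77.6, a fall of -1.59 ± 0.29 (adjusted p = 0.000461). Every mouse was lower at stage 6. Dnmt1 had its lowest level at stage 8, with 22.0, 38.3 and 31.5 (30.6 ± 8.16), and stages 7, 8 and 9 lay within each other's spread. It then rose by 1.15 ± 0.27 from stage 9 to stage 10 (adjusted p = 0.00226), and stage 13 held 79.6, 54.2 and 67.5. Of the 12 pairs of neighbours in the order of its levels, 10 overlapped in mean ± SD. The gaps lay below stage 1, the lowest of the first 5 stages, and above stage 7. The call from stage 5 to 6 was lost without mouse 2 (-1.16, adjusted p = 0.137) and that from stage 9 to 10 without mouse 3 (0.90, adjusted p = 0.146).

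Uhrf1 stood at 75.2, 111 and 103 CPM in mice 1, 2 and 3 at stage 1 and at 128, 150 and 183 at stage 2. Its rise of 0.67 ± 0.18 (adjusted p = 0.00665) was seen in 3 of 3 mice, with no overlap. The highest level was at stage 3, with 137, 166 and 180 (161 ± 21.9). Stage 5 held 31.8, 73.8 and 98.3, a fall of -0.86 ± 0.22 from stage 4 (adjusted p = 0.00264), and stage 6 had the lowest mean, 57.4 ± 8.01. From there no single step passed the test, yet the level climbed to 116, 145 and 127 at stage 13. No pair of neighbours in the order of the Uhrf1 levels differed beyond its spread. Its rise from stage 1 to 2 was lost without mouse 3 (0.64, adjusted p = 0.0754) and without the gate-sorted library of mouse 3 (0.48, adjusted p = 0.14), and the fall to stage 5 without mouse 1 (-0.51, adjusted p = 0.133), while without mouse 3 it was -1.53.

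The number of Uhrf1 UMIs per Dnmt1 UMI does not depend on any scaling between stages. This ratio was 0.489, 0.537 and 0.474 in mice 1, 2 and 3 at stage 1 and 0.5, 0.605 and 0.432 at stage 4. It reached 2.50, 1.91 and 2.50 at stage 7 and 4.22, 2.14 and 3.82 at stage 9, and was 1.46, 2.67 and 1.88 at stage 13. All 3 mice thus had fewer Uhrf1 than Dnmt1 UMIs up to stage 5 and more from stage 7 on, and at stage 6 they were split (0.857, 1.40 and 0.643). Between stages 1 and 13 the log2 ratio went up by 1.96 ± 0.37 (SD, n = 3), higher in 3 of 3 mice. The exact two-sided sign-flip permutation test gave p = 0.25, the smallest it can give with 3 mice.

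The Dnmt1 gene lies at chr9:20907209-20959888 on the minus strand and Uhrf1 at chr17:56303321-56323486 on the plus strand (GRCm38). The start regions of both hold a match to an E2F-type motif, E2F proteins being regulators of genes of DNA replication. These stretches are shown because the 2 genes share the match while their levels differed in late prophase. Capitals mark the motif, searched as TTTCGCGC and TTTGGCGC on both strands in RefSeq windows of 300 bases around each transcript start (GRCm38.p6).
Dnmt1 at chr9:20952824-20952853, minus strand: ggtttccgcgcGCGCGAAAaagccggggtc
Dnmt1 at chr9:20952574-20952601, minus strand: gcggggcagcgTTTGGCGCgggctgtgc
Uhrf1 at chr17:56304117-56304146, plus strand: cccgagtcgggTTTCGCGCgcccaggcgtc
In the upper Dnmt1 stretch the motif reads on the opposite strand, and in the other 2 on the strand of the gene. Of 15 windows of the 8 genes, 2 held a motif, 1 of Dnmt1 and 1 of Uhrf1. Among all 32851 windows, 0.323% held TTTCGCGC, 0.514% TTTGGCGC and 0.813% either of them. These shares are not matched for CG pairs. Both windows with a motif held 33 CG pairs, against a median of 7 over all windows. A match is a description of these letters and not a measured site.

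Of the genes for de novo methylation, Dnmt3a fell most from the earliest to the latest stage. It was highest at stage 1, with 313, 324 and 282 CPM in mice 1, 2 and 3 (306 ± 21.6), and still at 195, 202 and 181 at stage 4. Stage 5 held 71.5, 113 and 52.8, below stage 4 in every mouse (-1.30 ± 0.28, adjusted p = 0.000438), and stage 6 held 28.3, 18.8 and 22.2. A second, lower rise followed in late leptotene and zygotene-like cells. Dnmt3a went from 58.3, 46.6 and 22.1 at stage 7 to 116, 95.7 and 54.5 at stage 8. This rise of 1.08 ± 0.34 (adjusted p = 0.0252) was present in each mouse, although the ranges of the 2 stages overlapped between mice. Stage 9 was lower than stage 8 in every mouse, a step that was not called (-0.59 ± 0.33, adjusted p = 0.244). Called falls of Dnmt3a were -1.41 ± 0.37 from stage 9 to 10 (adjusted p = 0.00628) and -2.07 ± 0.46 from stage 10 to 11 (adjusted p = 0.00196). At stage 11 the level was 2.19, 3.63 and 5.80, its lowest, and at stage 13 it was 3.57, 4.25 and 4.58 on 37 UMIs. In the order of its levels only stages 4 and 8, and stages 10 and 12, were neighbours that stood apart. The rise to stage 8 missed the threshold without mouse 2 (0.99, adjusted p = 0.172) and without mouse 3 (1.04, adjusted p = 0.0634). It also missed it without the mouse term (1.18, adjusted p = 0.0738) and with no scaling factors, as in the CPM levels (0.93, adjusted p = 0.0604). The fall to stage 10 missed it with spike-in scaling (-0.74, adjusted p = 0.135) and without the mouse term (-1.36, adjusted p = 0.0635). The fall to stage 11 was -2.97 without mouse 3 and -2.96 without the gate-sorted library.

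Dnmt3b made a short peak in differentiating spermatogonia-like cells. It stood at 135, 86.4 and 137 CPM in mice 1, 2 and 3 at stage 1 and rose to 252, 266 and 331 at stage 2 (283 ± 42.4). Stage 3 held 125, 205 and 205, and stage 4 held 63.8, 27.3 and 69.0. Stage 2 was above both neighbours in all 3 mice, with no overlap. The rise to stage 2 was 1.19 ± 0.23 (adjusted p = 0.000187). The falls were -0.65 ± 0.21 to stage 3 (adjusted p = 0.0316), -1.76 ± 0.25 to stage 4 (adjusted p = 3.69e-06) and -2.35 ± 0.52 to stage 5 (adjusted p = 0.000542). From stage 5 to stage 9 Dnmt3b was close to the limit of detection, with 9, 2, 12, 10 and 5 UMIs in the 3 mice together. A sum at 0, such as mice 1 and 2 at stage 6, allows up to 28.3 and 28.2 CPM there (3 UMIs of the sum, counting error only). Pachytene-like cells again held a low, repeatable level, with 21.5, 14.5 and 20.7 at stage 11 on 107 UMIs and 17.3, 17.0 and 11.6 at stage 13 on 132 UMIs.

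The return from stage 9 to stage 10, 2.10 ± 0.69 (adjusted p = 0.0356), was higher in 2 of 3 mice and rests on 5 Dnmt3b UMIs at stage 9. It was lost without mouse 3 (1.14, adjusted p = 0.528) and without the gate-sorted library of that mouse (1.36, adjusted p = 0.399). The fall of Dnmt3b from stage 2 to 3 was lost without mouse 1 (-0.55, adjusted p = 0.0613), mouse 2 (-0.74, adjusted p = 0.0685) or mouse 3 (-0.59, adjusted p = 0.246), and the fall from stage 4 to 5 without mouse 3 (-1.86, adjusted p = 0.0622). The latter was -3.33 without mouse 1 and -3.29 without the Sertoli-like cells, and the return to stage 10 was 3.19 without mouse 1.

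The 2 de novo enzymes also exchanged their order in UMIs. Dnmt3b UMIs per Dnmt3a UMI were 0.432, 0.267 and 0.484 in mice 1, 2 and 3 at stage 1 and 1.34, 1.06 and 1.40 at stage 2. At stage 4 they were back at 0.328, 0.135 and 0.38, and at stage 13 they were 4.86, 4.00 and 2.53. The log2 ratio was 3.26 ± 0.79 (SD, n = 3) higher at stage 13 than at stage 1, in 3 of 3 mice (exact two-sided permutation p = 0.25, the smallest possible). As the share of each gene's RNA molecules that was counted is not known, the ratio shows unequal change and not which enzyme is more abundant.

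Dnmt3l, which has no catalytic activity of its own, was close to absent. It gave 13 UMIs in all stages and 14 in all wells, 3 of them in mouse 1, 3 in mouse 2 and 7 in mouse 3, and was not tested. Of the 13 UMIs, 6 came from stage 1, where the level was 5.13, 3.08 and 2.55 CPM in mice 1, 2 and 3. Stage 1 was the only stage with a Dnmt3l UMI in every mouse. Its Dnmt3l UMIs came from 4 cells, and the 3 of mouse 1 from 1 cell. The highest mean, 4.98 ± 4.73 at stage 6, rests on 2 UMIs.

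**Figure D1:**
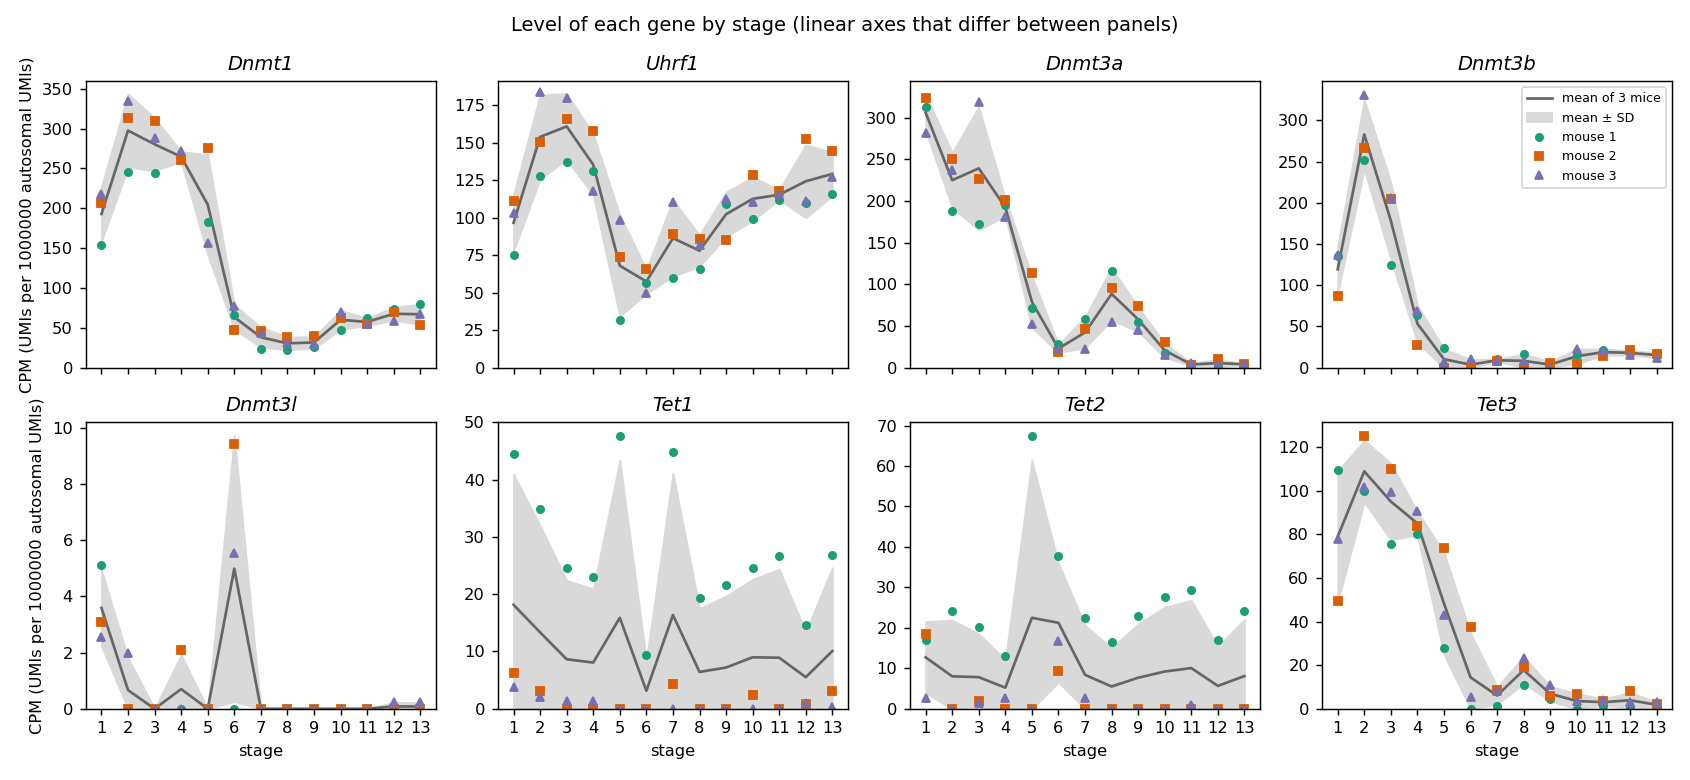
Level of each of the 8 genes (y, CPM, linear axes that differ between panels) against stage (x), with 1 point per mouse, the mean of 3 mice as a line and mean ± SD as a band cut at 0. Dnmt3b peaks at stage 2 with 283 ± 42.4, Dnmt3a shows a second rise at stage 8, and Tet1 and Tet2 points of mouse 1 lie above those of the other mice in most stages.

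Among the erasers, Tet3 followed the spermatogonial pattern. It stood at 109, 49.4 and 77.9 CPM in mice 1, 2 and 3 at stage 1. Stage 2 had its highest mean, with 99.6, 125 and 102 (109 ± 14.2), and stage 4 held 80.2, 84.0 and 90.7. Stage 1 had the widest spread of these stages, and neighbours in the order of the 4 levels overlapped. The level was 27.8, 73.8 and 43.2 at stage 5 and 0, 37.6 and 5.54 at stage 6, where mouse 2 stood above the others on 4 UMIs. No single step of Tet3 passed the test, while the change over all stages did (adjusted p = 1.07e-18). At stage 8 the level was 11.02, 19.1 and 23.1, above stage 7 in every mouse and not called. By stage 13 it was 0.51, 2.13 and 2.89, its lowest, on 16 UMIs.

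Tet1 and Tet2 counts came almost wholly from mouse 1. Of 440 Tet1 UMIs in staged cells, 418 were from mouse 1, and of 396 Tet2 UMIs, 376 were, or 95% and 94.9%, while mouse 1 held 41.0% of all UMIs of the stages. In mouse 1 Tet1 ranged from 9.42 to 47.6 CPM over the stages (median 24.6), and it was seen in 13 of 13 stages. In mice 2 and 3 it ranged from 0 to 6.17 and from 0 to 3.83, with 7 stages at 0 in each. Tet2 ranged from 13.1 to 67.5 in mouse 1 (median 23.0), from 0 to 18.5 in mouse 2 and from 0 to 16.6 in mouse 3. With so few UMIs in mice 2 and 3, their course over the stages could not be read. The mice differed in the UMIs counted, and mouse 1 cannot be told apart from its protocol.

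The reads behind those UMIs also differed. In mouse 1 a Tet1 UMI was backed by 1.36 reads and a Tet2 UMI by 1.18, against 3.58 over all genes. The share of gene and well entries with exactly 1 read per UMI was 74.1% for Tet1 and 87.2% for Tet2, against 24.7% over all genes in mouse 1. For the other genes of the group in mouse 1, reads per UMI were 5.17 for Dnmt1, 3.83 for Dnmt3a, 2.67 for Dnmt3b, 2.45 for Uhrf1 and 4.43 for Tet3. Across the mice the 22 Tet1 UMIs of mice 2 and 3 fell as 11 in stages 1 to 4, 1 in stages 5 to 9 and 10 in stages 10 to 13, and the 20 Tet2 UMIs as 13, 5 and 2. Whether the single-read UMIs of mouse 1 bear on the level of Tet1 and Tet2 was not tested.

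**Figure D2:**
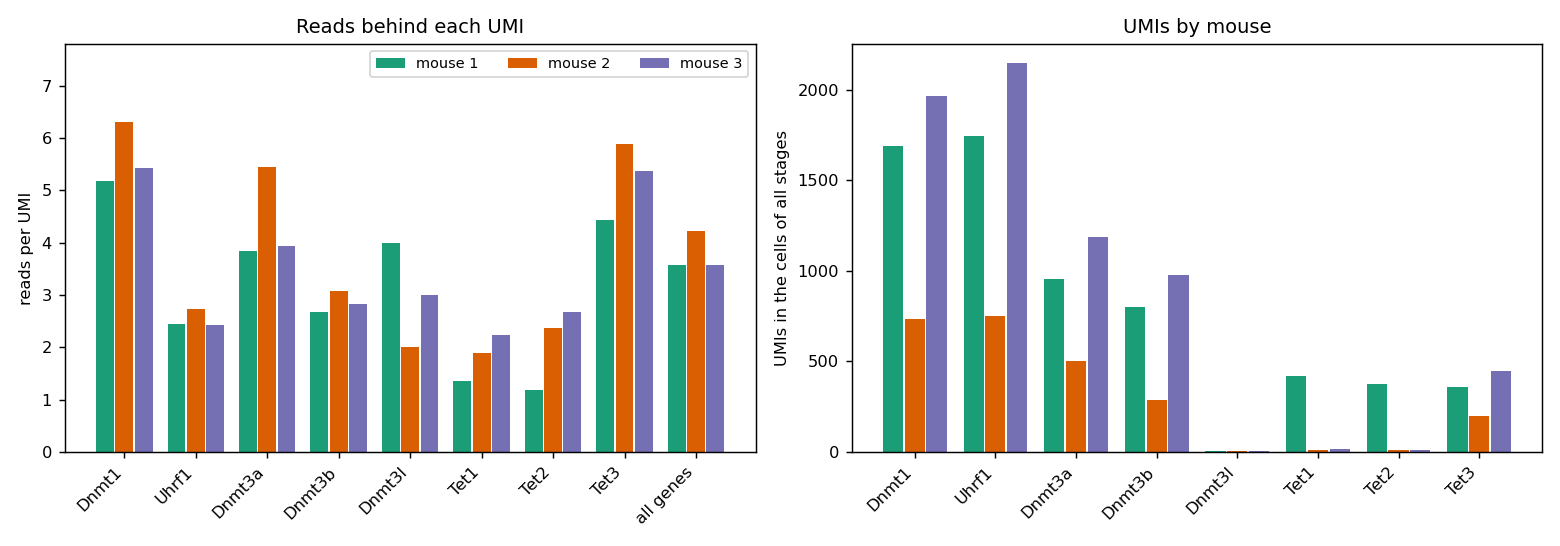
Left, reads per UMI (y, linear from 0) for each gene and for all genes (x) in staged cells, 1 bar per mouse. Right, the UMIs behind them (y) by gene and mouse; Tet1 and Tet2 have 418 and 376 UMIs in mouse 1 and at most 13 in each of the others.

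From stage 1 to stage 13, the latest pachytene-like cells, 4 of the 7 tested genes fell and 1 rose in edgeR's quasi-likelihood test with TMM factors and the mouse as block. Of all 5142 genes tested, 37.1% fell and 38.8% rose. The log2 change was -5.54 ± 0.29 for Dnmt3a (adjusted p = 1.15e-20), -4.81 ± 0.45 for Tet3 (adjusted p = 6.96e-13), -2.46 ± 0.27 for Dnmt3b (adjusted p = 6.99e-11) and -0.86 ± 0.17 for Dnmt1 (adjusted p = 1.18e-05), each lower in 3 of 3 mice. The size for Tet3 depended on the libraries, with -4.03 without mouse 1, -6.03 without mouse 3 and -5.99 without the gate-sorted library. Uhrf1 rose by 1.04 ± 0.17 (adjusted p = 7.87e-07), higher in 3 of 3 mice. Tet1 differed by -0.62 ± 0.51 (adjusted p = 0.264) and Tet2 by -0.54 ± 0.75 (adjusted p = 0.524). Over all stages 5 of the 7 changed, all but Tet1 (adjusted p = 0.259) and Tet2 (adjusted p = 0.536), beside 95.5% of all genes tested. Tet2 passed in the stage 13 comparison with DESeq2 (-3.49, adjusted p = 0.00554) and with reads in place of UMIs (-5.00, adjusted p = 0.00512). Yet mouse 1 was higher at stage 13 (24.2 CPM on 95 UMIs) than at stage 1 (17.1 on 10). The fall lay in mice 2 and 3, which went from 6 and 2 Tet2 UMIs to 0 and 0.

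Between successive stages, 14 of 84 steps of a gene passed, or 16.7%, near the 13.3% of all genes' steps. Dnmt1, Dnmt3b and Uhrf1 rose together from stage 1 to 2, where 7.55% of all genes rose. Dnmt3a, Dnmt3b and Uhrf1 fell from stage 4 to 5, where 14.2% fell. From stage 9 to 10, Dnmt1 and Dnmt3b rose (9.51% of all genes rose) while Dnmt3a fell (4.06% fell). Another 5 steps had 1 of the 7 genes each, and the remaining 4 had none. The background was 7.41% for the fall of Dnmt3b from stage 2 to 3, 6.01% for its fall to stage 4 and 3.15% for the fall of Dnmt1 to stage 6. It was 8.77% for the rise of Dnmt3a to stage 8 and 2.61% for its fall to stage 11. Without the mouse term 7 steps passed, and without mouse 3 8 did. Among the steps lost without the mouse term were those from stage 1 to 2 of Dnmt1 (0.59, adjusted p = 0.1), Dnmt3b (1.20, adjusted p = 0.251) and Uhrf1 (0.64, adjusted p = 0.1), and of Dnmt3b those to stage 3 (-0.65, adjusted p = 0.746), stage 4 (-1.76, adjusted p = 0.105) and stage 10 (2.04, adjusted p = 0.144). The steps into and out of stage 5 include its Sertoli-like cells; without these, stage 5 held 226 ± 78.1 CPM of Dnmt1 against 205 ± 62.8 with them, 87.3 ± 43.8 against 79.1 ± 30.9 of Dnmt3a and 5.69 ± 7.60 against 10.3 ± 12.2 of Dnmt3b.

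The reference scale mattered for the genes with small changes. RNA content per cell, as endogenous UMIs per ERCC spike-in UMI, was -1.78 ± 0.44 on the log2 scale at stage 6 against stage 1 and 1.67 ± 0.46 at stage 13. On the spike-in scale Uhrf1 at stage 13 was 452% ± 119 of its stage 1 value (SD, n = 3) and Dnmt1 120% ± 44.1, while Dnmt3b was 42.7% ± 8.30, Tet3 10.1% ± 8.19 and Dnmt3a 4.78% ± 2.50. At stage 7 the same measure gave 5.92% ± 0.98 for Dnmt1, 27.5% ± 7.47 for Uhrf1 and 4.12% ± 1.61 for Dnmt3a. With sums scaled to spike-ins, the edgeR change of Dnmt1 from stage 1 to 13 was 0.26 (adjusted p = 0.297) and that of Uhrf1 2.17 (adjusted p = 9.75e-12). Dnmt3a, Dnmt3b and Tet3 fell on both scales.

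Scaling also moved all genes. The median change of all tested genes was 0.05 with TMM, -0.40 with median-ratio factors, -0.54 with no factors and 1.18 with spike-ins, and the split of calls was 1997 higher and 1908 lower, 1530 and 2358, 1370 and 2452, and 3011 and 1169. Relative to that median, Dnmt1 differed by -0.92, -0.93, -0.93 and -0.92 and Uhrf1 by 0.99, 0.98, 0.97 and 0.99. A change of scaling shifts all genes by nearly the same amount, so these distances are close to fixed by construction. The CPM levels correspond to no factors, where Uhrf1 rose by 0.43 (adjusted p = 0.0319) and Dnmt1 fell by 1.47 (adjusted p = 1.36e-09).

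**Figure D3:**
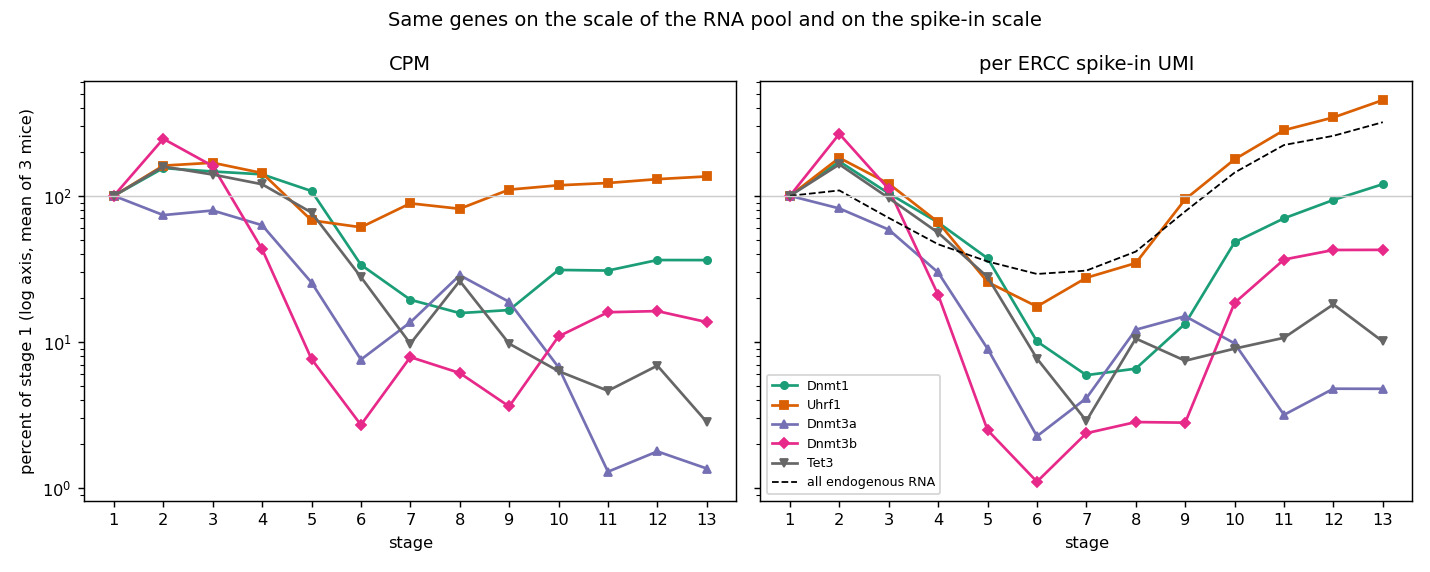
Level of Dnmt1, Uhrf1, Dnmt3a, Dnmt3b and Tet3 as percent of stage 1 (y, log axis, mean of 3 mice; values of 0 enter the mean) against stage (x), in CPM on the left and per ERCC spike-in UMI on the right. The dashed line is the RNA content per spike-in UMI (geometric mean of 3 mice), and on the right Uhrf1 ends at 452% and Dnmt1 at 120% of stage 1.

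In single cells, the share with at least 1 UMI followed the same course once every cell was thinned to 2000 UMIs. In stages 1, 2, 8 and 13, Dnmt1 was then found in 32.7% ± 3.83, 44.6% ± 6.34, 5.72% ± 0.42 and 12.2% ± 2.59 of cells (SD, n = 3). Unthinned, these shares were 89.7%, 98.9%, 25.8% and 93.1%, with median depths of 27078, 25923, 8389 and 86938 UMIs per cell. Dnmt3a UMIs were in 42.3% ± 3.51 of thinned cells at stage 1 and in 0.77% ± 0.26 at stage 13 (unthinned 92.8% and 30.6%), and Dnmt3b UMIs in 40.4% ± 5.47 at stage 2 and 2.84% ± 0.66 at stage 13 (unthinned 96.8% and 65.0%). Uhrf1 differed from them, with 17.8% ± 5.36 at stage 1 and 21.9% ± 3.27 at stage 13 (unthinned 82.9% and 98.2%). Thinning left out 2, 2, 10 and 5 cells of stages 4, 5, 7 and 8.

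Across the 39 sums of a mouse and stage, log2(CPM + 1) centred within mouse, Dnmt3a and Tet3 were the most alike of the group (Pearson's r = 0.851), ahead of Dnmt1 and Tet3 (0.753) and Dnmt1 and Dnmt3b (0.685). Dnmt1 and Uhrf1 had an r of 0.345, and Dnmt3a and Uhrf1 of 0.0434. Among all tested genes the nearest to Dnmt1 were 2700094K13Rik (0.939), Slc25a37 (0.934) and Gapdh (0.933). Those nearest to Dnmt3a were Marcksl1 (0.953), Prrc2b (0.952) and Ctsb (0.932), and to Dnmt3b Mvd (0.889), Padi3 (0.873) and Rcc2 (0.864). Uhrf1 was nearest to Snapc4 (0.842), Ash2l (0.816) and Ndufa13 (0.813), and Tet3 to Anxa11 (0.931), Lphn1 (0.919) and Mier1 (0.912). For Tet1 the nearest were Fblim1 (0.82), Rragd (0.74) and Bcor (0.731), and for Tet2 Alms1 (0.632), Mast2 (0.624) and Iws1 (0.613). Mice 2 and 3 gave only 22 Tet1 and 20 Tet2 UMIs, so most of their sums lay at or near 0. The r values of these 2 genes therefore say little. The points share their cells, stages and depth, so these values are descriptions.

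The partners of these enzymes were taken from 5 lists, of which 60 of 68 genes were tested. From stage 1 to stage 13, 19 rose, 33 fell and 8 were not called, with a median of -1.26 on the log2 scale against 0.05 over all genes tested. With no factors 12 rose. These counts, and those of each list below, stand beside 38.8% of all tested genes that rose and 37.1% that fell. Values below with an SE are edgeR log2 changes with TMM factors, each with an adjusted p of at most 0.00701.

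Of the genes that act with Dnmt1 and Uhrf1 at replication, 3 rose and 7 fell of 10 (median -1.94). Cdca7, which activates the remodeller Hells, fell (-5.71 ± 0.36), as did the H3K9 methyltransferase Ehmt1 (-4.67 ± 0.27) and the PCNA-binding factor 2810417H13Rik, also called Pclaf (-2.84 ± 0.42). Pcna, the replication clamp, rose by 1.53 ± 0.15 from 277 ± 25.3 to 525 ± 55.5 CPM, and the deacetylase Hdac1 rose by 1.45 ± 0.15. Usp7, a deubiquitinase that binds DNMT1 and UHRF1, had 0.43 ± 0.15 here but -0.016 with median-ratio factors and -0.17 with no factors. It was also lost without mouse 1, 2 or 3 (0.23, 0.22 and 0.30, adjusted p = 0.16, 0.342 and 0.161). The median of all genes was lower in those fits as well, at -0.11, -0.15 and -0.11 against 0.05. The value of 2810417H13Rik was -3.48 without mouse 1. Like Uhrf1, Pcna was higher at stage 13 than at stage 1 in every mouse. Their courses in between differed. Pcna was highest at stage 6, with 948 ± 104 CPM, where Uhrf1 had its lowest mean, 57.4 ± 8.01.

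Among relatives and readers of methylated DNA, 3 rose, 4 fell and 3 were not called of 10 tested (median -0.17). Mbd1 and Mbd3, of the methyl-CpG binding domain family, rose by 1.81 ± 0.22 and 1.78 ± 0.19, and Zbtb4 by 3.20 ± 0.49. The reader Zbtb33, on the X chromosome, fell (-6.44 ± 0.41), and Zbtb38 fell too (-3.48 ± 0.61). Without mouse 1 the values were 2.39 for Zbtb4 and -5.76 for Zbtb33, which has 6 UMIs at stage 13; without mouse 3 Zbtb4 had 3.95, and without mouse 2 Zbtb33 had -7.47. Of 391 tested genes of the X chromosome, 346 fell (88.5%). Gm14490 (Dnmt3c), a rodent relative of Dnmt3b, was not analysed here.

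Genes that guide de novo methylation, the piRNA factors and the H3K36 methyltransferases, had 8 that rose and 3 that fell of 12 tested (median 0.60). Piwil4 and Spocd1 were not tested. The count of rises depends on the TMM factors. In CPM, Whsc1 (228.2 ± 17.15 to 205 ± 22.34) and Setd2 (197.5 ± 36.05 to 169.6 ± 36.83), called as risen, had lower means at stage 13, within their spread. Pld6, a nuclease of piRNA formation, rose by 3.12 ± 0.21, the Tudor protein Tdrd1 by 2.07 ± 0.16 and Mael by 1.62 ± 0.14. Tex15, needed for piRNA-directed methylation in fetal germ cells, fell by 3.93 ± 0.25 after a peak of 3344 ± 716 CPM at stage 6. Morc1 fell (-3.02 ± 0.25) and so did the H3K36 methyltransferase Nsd1 (-1.48 ± 0.18), the latter -0.37 (adjusted p = 0.152) with spike-in scaling.

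Of the genes for removal of oxidised bases and the partners of the TET enzymes, 2 rose, 10 fell and 2 were not called of 14 tested (median -1.75). The repair proteins Lig3 and Xrcc1 rose by 1.69 ± 0.21 and 1.39 ± 0.16. Ogt, the X-linked glycosyltransferase that binds TET proteins, fell (-6.36 ± 0.40), and so did the DNA glycosylase Neil2 (-5.83 ± 0.60). With 8 and 4 UMIs at stage 13, their sizes moved to -7.09 for Ogt without mouse 2, and for Neil2 to -8.01 without mouse 3 and -7.92 without the gate-sorted library. Gadd45g went from 46 UMIs at stage 1 to 1 at stage 13, a ratio of levels of 245 (exact 95% interval 41.8 to 9875, counting error only). Tdg, the glycosylase that removes oxidised cytosines, was at 39.3, 0 and 0 CPM in mice 1, 2 and 3 at stage 1 and at 12.3, 0 and 0 at stage 13, so its call (-1.25, adjusted p = 0.0449) comes from mouse 1 alone.

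In the supply of the methyl donor S-adenosylmethionine, 3 genes rose, 9 fell and 2 were not called of 14 (median -1.23). Mthfd1 of the folate cycle fell (-4.05 ± 0.61), and so did Mat2b, the regulatory subunit of the synthetase (-2.37 ± 0.16). Mthfd1 was at -4.66 without the gate-sorted library. Mthfd1l went from 21 UMIs to 1, a ratio of levels of 112 (exact 95% interval 18.0 to 4621). Ahcyl1 rose by 1.29 ± 0.18. Mat2a, the catalytic subunit, had 0.48 ± 0.15 from stage 1 to stage 13, but 0.03 with median-ratio factors or DESeq2 and -0.12 with no factors. Its call was also lost without mouse 1, 2 or 3 (0.29, 0.30 and 0.30, adjusted p = 0.0819, 0.14 and 0.181). The median of all genes was lower in those fits as well, as given above. The highest level of Mat2a was 1325 ± 335 CPM at stage 6. Dnmt3b and Uhrf1 had their lowest means there, Dnmt3b on 2 UMIs (3.70 ± 6.40, against 3.81 ± 3.30 at stage 9). Mat2a was not alone, as Pcna, Hells, Tex15, Nsd1, Whsc1 and Zbtb4 of the lists also had their highest mean at stage 6.

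**Figure D4:**
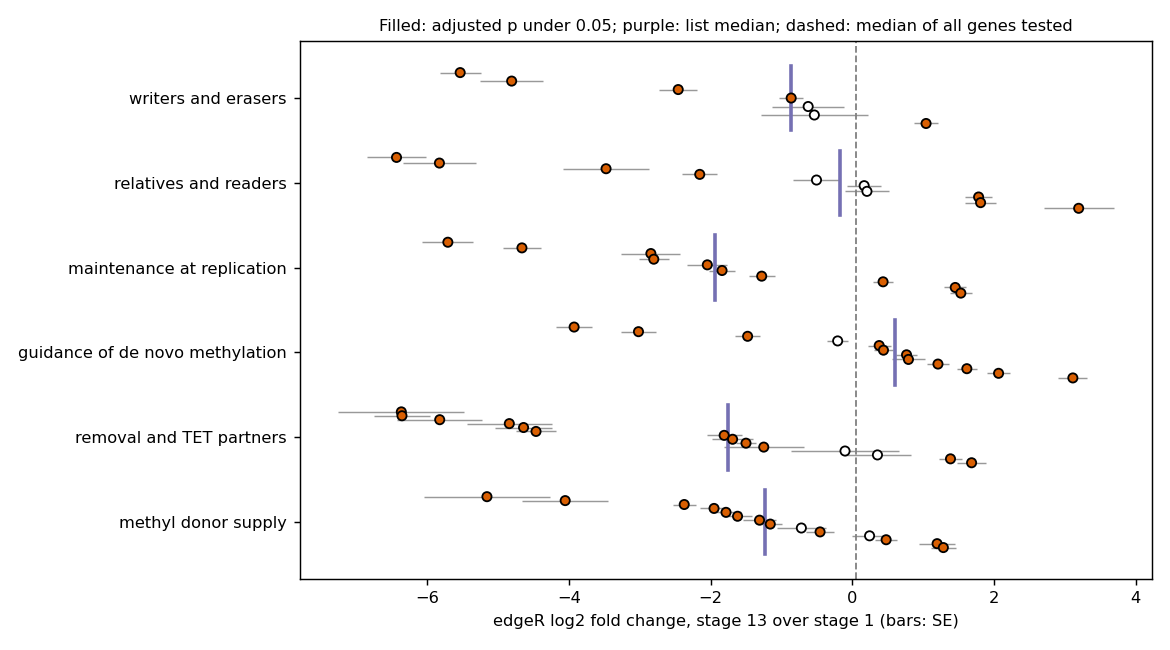
edgeR log2 fold change from stage 1 to stage 13 with SE (x) for each tested gene of the group and of the 5 lists (y). Filled points passed at an adjusted p under 0.05; of the writers and erasers, 4 lie left of 0 and Uhrf1 alone lies right of it among the filled points, and the piRNA and H3K36 list has the highest median (0.60).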

How the data were processed

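The authors deposited 3 tables by gene and well: UMI counts, read counts and transcripts, the last being estimated counts (UMIs corrected for collisions); in mouse 1 its wells stood in another order and were matched by profile. BWA 0.7.10 and mm10 are named per the submitters' processing notes; annotation and strand of counting are not given in the sources used here, so reads of overlapping genes (Dnmt3l and Aire, Tet3 and B230319C09Rik) cannot be told apart. Wells with at least 1000 UMIs (without ERCC, mitochondrial, eGFP and Rn45s rows) were kept. Rn45s was 1.27% of UMIs.

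Stages were built from 1500 variable genes of odd-numbered autosomes, without the 8 genes and the lists (Seurat 5.3.0 anchors; scanpy 1.11.5, 15 components, 15 neighbours, Leiden resolution 1.0, diffusion pseudotime). A stage needed at least 10 cells in at least 2 mice and a median depth of at least 1/3 of that of all kept cells. The depth rule and the tie-break between marker classes, which left stage 5 unnamed and called stage 1 undifferentiated rather than differentiating, were set after clusters of these data had been seen. Stage 4 was left unnamed after its marker levels were seen. Each well received 1 sorted cell, so doublets were not removed. Counts were summed by mouse and stage (39 sums of 106114 to 4146665 UMIs) and tested with edgeR 4.0.16 (quasi-likelihood, TMM, filterByExpr, Benjamini-Hochberg) on 5142 genes outside the staging pool, the code being tested on simulated data. The mouse was a block because all stages come from the same 3 animals. Analyses used Python 3.11.15, pandas 2.3.3, R 4.3.3 and DESeq2 1.42.0.

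The members and lists were chosen with earlier results of these data known. Named were all 8 genes and each of their steps that passed, the 3 genes most like each, and up to 3 list genes in each direction with the largest called change, of which 2 are not reported here; Tdg and the peak levels of Mat2a and Tex15 were chosen after their values were seen. Intervals cover counting error only. Promoter windows and sequences are from RefSeq (GRCm38.p6), in which all 8 genes matched, and gene positions from GENCODE M21. Fewer cells of a type and less RNA per cell cannot be told apart in a summed count except through the spike-ins.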

Additional observations from a re-analysis of the deposited data

Results flagged for a closer look

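Wells outside the stages also held UMIs of these genes. In the 227 kept wells that belonged to no stage the 8 genes together gave 438 UMIs per 1000000 autosomal UMIs (408 UMIs), and in the 472 wells under the minimum of 1000 UMIs they gave 385 (68 UMIs). They are given because these wells entered no comparison. The staged cells gave 400 on the same scale, and the differences were not tested.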

How the results depend on the processing

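Of 124 alternative values for the change of the 7 tested genes from stage 1 to stage 13, 118 kept direction and call. Scaling to spike-ins turned Dnmt1 to 0.26, Tet1 to 0.45 and Tet2 to 0.46, and leaving out mouse 2 turned Tet2 to 0.38 (-0.13 without mouse 3); Tet2 passed with DESeq2 and with reads. Of 209 values for steps, 171 were kept and 38 lost their call. The number of steps that passed was 14, but 27 with spike-ins and 7 without the mouse as a replicate block, and 8 to 13 when each mouse was left out. List genes that rose numbered 19, 12 with no factors and 14 to 15 without each mouse; those that fell numbered 32 to 34 without each mouse, the called members 1 higher and 4 lower, and 5 over all stages. Usp7 turned to -0.016 with median-ratio factors, -0.024 with DESeq2 and -0.17 with no factors, and Mat2a to -0.12 with no factors. Without thinning, the share of cells with a UMI at the highest stage was 98.9% for Dnmt1, 92.8% for Dnmt3a, 96.8% for Dnmt3b, 3.70% for Dnmt3l, 79.5% for Uhrf1, 31.0% for Tet1, 15.4% for Tet2 and 86.6% for Tet3. The stage of the highest level moved for Uhrf1 from 3 to 2 with cells weighted equally and to 13 per spike-in UMI, for Tet1 from 1 to 7 and 13, for Tet2 from 5 to 13 per spike-in UMI and for Dnmt3l from 6 to 1. No factors, and leaving out Sertoli-like cells or the gate-sorted library, were chosen after seeing the data. Sums of at least 20 cells left 12 stages, without stage 6 and with stage 1 from mouse 3 alone. Few UMIs limit what can be said of Dnmt3l, of Tet1 and Tet2 in mice 2 and 3, and of Dnmt3b in stages 5 to 9; mouse 3 had more UMIs in all than mouse 1 (17541221 and 16200996). Without mouse 1, Tet1 and Tet2 did not pass the filter on low counts, so no value was obtained. The cause of these differences was not tested.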

Other observations

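Mouse 1 gave at least 90% of the UMIs of 337 of the 5715 genes with at least 100 UMIs in staged cells (5.90%), Tet1 and Tet2 among them. In these genes a median of 56.5% of gene and well entries in mouse 1 had exactly 1 read per UMI, against 24.7% over the 5715 genes. The base excision gene Apex1 showed a like split, with 270, 12.3 and 3.83 CPM at stage 1 in mice 1, 2 and 3.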
